A study of Rattus norvegicus with 20 samples.

Results

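The interleukin 1 family genes described here comprise 4 agonist cytokines, 3 receptor chains that carry signal and 3 inhibitors: Il1a, Il1b, Il18 and Il33 among the agonists, Il1r1, Il1rap and Il1rl1 among the receptors, and Il1r2, Il1rn and Il18bp among the inhibitors. They were taken by symbol from the array table (IL1A, IL1B, IL18, IL33, IL1R1, IL1RAP, IL1RL1, IL1R2, IL1RN and IL18BP there). All 10 were found, among 21792 table rows. The lungs came from 20 male rats of the strain labelled CDF Fisher 344, aged 3 months, with 1 bead array per rat. The silica group held 8 rats that had breathed crystalline silica at 15 mg/m3 for 6 hours a day on 5 days, and the air group held 12 controls; lungs were taken 16 hours after the last exposure. Whole lung RNA was measured, so fewer cells of a type and less RNA per cell cannot be told apart, and no group marks a single cell type.

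Interleukin 1 alpha and interleukin 1 beta bind the same signalling receptor, Il1r1, which needs the shared accessory chain Il1rap to signal through Myd88 to NF-kB. Interleukin 1 beta and interleukin 18 are made as precursors that caspase 1 cuts inside an inflammasome, whereas interleukin 1 alpha and interleukin 33 are held in the cell and act as alarm signals when it dies. The family carries its own brakes: Il1rn occupies Il1r1 without signalling, Il1r2 is a decoy receptor that binds ligand and lacks a signalling domain, and Il18bp is a secreted protein that holds interleukin 18. In the lung, inhaled silica crystals are a textbook activator of the Nlrp3 inflammasome in macrophages.

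In silica lungs the decoy receptor Il1r2 was 2.47-fold higher than in air lungs, without overlap between the groups. The agonists Il1a, Il1b and Il18 and the antagonist Il1rn were 1.32-fold to 1.38-fold higher, and the groups overlapped for each of these 4 genes. Il18bp differed by less than the spread between rats, and the 3 signalling receptor chains were near the array background. Normalized Il33 was lower in every silica lung than in any air lung, by a narrow gap, as was so for 0.744% of rows. Before normalization the groups overlapped. The Il33 row failed the filter and was kept by its intensity, a choice made after seeing the data. Of the 6 genes of the family that the filter on dim probes let through, 5 rose and 0 fell at an adjusted p under 0.05 (limma, Benjamini-Hochberg over 10488 genes). Over all genes tested 24.5% passed in either direction and 11.7% were higher in silica, so many unrelated genes passed too.

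The alpha and beta genes and Il1rn lie on chromosome 3, though Il1rn lies far from the alpha and beta genes. Each rose against all air rats, by 0.44 to 0.46 on the log2 scale. The 250 bases before their RefSeq starts are shown for that reason. Their sizes were less alike in other settings: against air rats 89 to 92 alone the difference was 0.20 for Il1rn and 0.39 for both Il1a and Il1b. Sequences are from RefSeq on the GRCr8 assembly, 5′ to 3′ on the gene's strand, where 9 of the 10 genes matched an entry; the build behind the array's own annotation is not given in the sources. Capitals mark letters that match a TATA motif (TATANA) or an AP-1 motif (TGANTCA) on either strand; the matches do not overlap each other. Il1a is from chr3:136990018-136990267 on the minus strand, Il1b from chr3:137036582-137036831 on the minus strand and Il1rn from chr3:27520072-27520321 on the plus strand.
Il1a: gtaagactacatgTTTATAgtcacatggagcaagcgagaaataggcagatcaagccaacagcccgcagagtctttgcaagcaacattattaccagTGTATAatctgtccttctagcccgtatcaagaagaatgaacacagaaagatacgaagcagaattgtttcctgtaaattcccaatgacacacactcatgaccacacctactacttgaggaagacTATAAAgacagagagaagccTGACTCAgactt
Il1b: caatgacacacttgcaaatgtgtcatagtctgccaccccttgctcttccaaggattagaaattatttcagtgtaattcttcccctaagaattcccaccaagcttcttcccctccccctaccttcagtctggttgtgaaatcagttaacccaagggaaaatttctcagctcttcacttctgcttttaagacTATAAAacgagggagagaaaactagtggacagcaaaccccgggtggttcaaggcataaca
Il1rn: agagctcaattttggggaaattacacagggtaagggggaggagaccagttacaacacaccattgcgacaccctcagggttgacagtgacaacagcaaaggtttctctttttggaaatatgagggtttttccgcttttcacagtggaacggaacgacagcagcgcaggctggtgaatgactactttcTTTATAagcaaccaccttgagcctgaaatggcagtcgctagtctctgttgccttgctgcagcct

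Il1a had 3 TATA matches, which began 237, 155 and 32 bases before the start. Il1b had 1 such match, 60 bases before its start, and Il1rn had 1, 64 bases before its start. The Il1a matches at 237 and 155 and the Il1rn match lay on the opposite strand. Such a match stands in 24.2% of the 33469 RefSeq promoter windows of this length. Il1a also had an AP-1 match 12 bases before its start, which 6.34% of the windows hold. A C/EBP motif (TTGCNNAA, in 9.22% of windows) and the kappa B consensus (in 3.54% of windows) were searched for on both strands as well and had no match in these 3 windows. Il18, on chromosome 8, rose by a similar 0.40, and its window had no match to any of these motifs. These are matches of letters, not measured binding sites.

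Array intensities are given on a log2 scale after background correction and quantile normalization, so a difference of 1 is a doubling of the corrected intensity. An array's levels of different genes depend on each probe's own brightness, so levels are compared between rats for 1 gene and never between genes. The arrays resembled each other in depth: median intensity ran from 67.0 to 98.6 units, genes detected at p under 0.01 from 9434 to 10840 per array, and median beads per gene from 40 to 43. Sftpc, the surfactant gene that marks lung tissue, averaged 14.10 ± 0.08 in silica lungs and 14.07 ± 0.10 in air lungs and was detected on all 20 arrays. For Il1b the median bead standard error was 2.68% of the intensity, whereas the SD between rats came to 16.5% in silica lungs and 14.1% in air lungs. For Il33 the bead standard error, 3.78%, was closer to the SD between rats, which was 5.41% in silica lungs and 7.06% in air lungs. The air rats' identifiers fall into 3 runs (89 to 92, 105 to 108 and 137 to 140), of which the first continues the silica rats' 81 to 88, and the labels do not say whether a run was handled apart. The results for the family genes detected are therefore also given against each run of 4 air rats, and gene lists also against rats 89 to 92 alone.

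**Figure D1:**
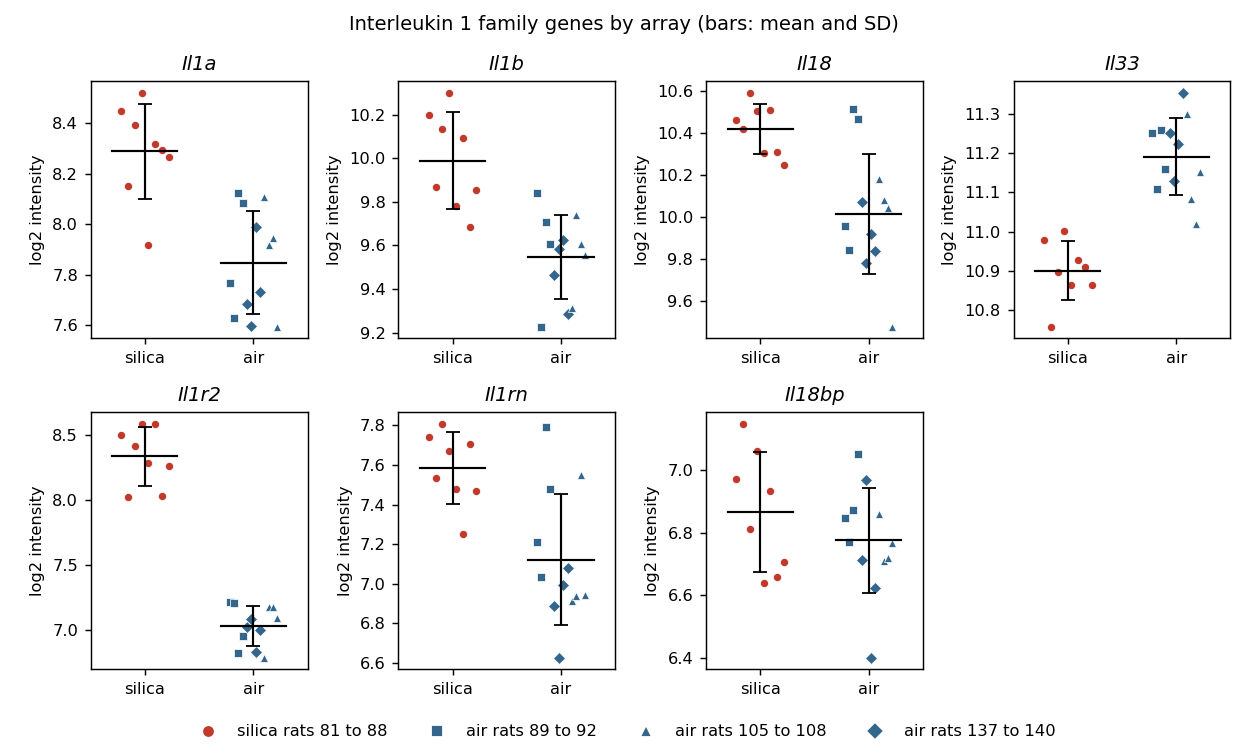
Normalized log2 intensity of 7 interleukin 1 family genes in every array, with silica rats (red, n = 8) left of air rats (blue, n = 12, the marker shape giving the run of identifiers), and bars for the mean and SD. The silica rats lie above all air rats for Il1r2 and below all air rats for Il33, and the groups overlap for the other 5 genes.

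Among the agonists, Il1b encodes the cytokine that macrophages release after inflammasome activation. Its log2 intensity ran from 9.69 (lowest) through 9.98 (median) to 10.30 (highest) in the 8 silica lungs, against 9.23, 9.59 and 9.84 in the 12 air lungs. The highest silica values were in rats 84, 81 and 83; 6 of the 8 silica lungs lay above every air lung, and the groups overlapped. The group means were 9.99 ± 0.22 in silica lungs (SD, n = 8) and 9.55 ± 0.19 in air lungs (SD, n = 12), a difference of 0.44 ± 0.08 (SE) or 1.36-fold, with an adjusted p of 4.91e-04 in limma. Il1b stood at place 260 of 10488 when genes were ordered by their rise.

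Il1a encodes interleukin 1 alpha, which is active without caspase 1. Its log2 intensity was 7.92 at the lowest, 8.31 at the median and 8.52 at the highest in silica lungs, against 7.59, 7.84 and 8.13 in air lungs. Rat 85 was the single silica lung within the range of the air lungs, and the other 7 lay above it. Means were 8.29 ± 0.19 in silica lungs and 7.85 ± 0.20 in air lungs (SD, n = 8 and 12). The difference of 0.44 ± 0.08 (SE), 1.36-fold, matched that of Il1b to 2 decimals and had an adjusted p of 5.02e-04 in limma.

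Il18 encodes interleukin 18, which drives interferon gamma production in lymphocytes. Silica lungs ran from 10.25 through a median of 10.44 to 10.59 on the log2 scale, against 9.48, 10.001 and 10.51 in air lungs. A single silica lung exceeded all air lungs, and air rats 91 and 92 lay among the silica lungs. The means of 10.42 ± 0.12 in silica lungs and 10.01 ± 0.29 in air lungs differed by 0.40 ± 0.10 (SE), 1.32-fold, with an adjusted p of 0.00383 in limma. The SD in silica lungs was below that in air lungs (8.71% against 22.04% of the intensity); the difference in spread was not tested.

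Markers of alveolar macrophages gave a mixed picture beside these 3 agonists. Of 10 tested, 5 rose, 1 fell and 4 did not pass. Those that did not pass were Pparg, Siglec5, Fabp4 and Krt79, with log2 differences between -0.004 and 0.17. Over all genes tested 24.5% passed in either direction and 11.7% were higher in silica. Chi3l1, a chitinase-like protein, led the rises at 1.11 ± 0.10 (log2 difference, SE), while Car4, a carbonic anhydrase, fell by 0.27 (SE 0.04). The summed log2 level of these markers ran from 13.998 to 14.21 in silica lungs and from 13.40 to 13.996 in air lungs, so the groups met without overlap. Marco, a scavenger receptor of these cells, was detected on no array. With air rats 89 to 92 as the only controls, where 6.18% of all genes passed, 2 rose and 1 fell. The part of these cells in the rises of Il1a, Il1b and Il18, and in that of Il1rn given below, was not tested.

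Il33 encodes interleukin 33, an alarm cytokine stored in the nucleus; in mouse lung it is known mainly from type 2 epithelial cells and in human tissues from endothelial cells. Its table row averages several probes, as its fractional bead counts show, and carries a combined detection p that ran from 0.032 to 0.390. The row therefore did not pass the filter, although its raw intensity ran from 1537 to 3500 units, while the dimmest detected single probes lay between 68.7 and 114 units. When such averaged rows were kept by their intensity, a choice made after seeing the data, 10620 rows were tested. Whether the probes behind the Il33 mean agree cannot be read from these files.

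Normalized Il33 was 10.76 at the lowest, 10.90 at the median and 11.001 at the highest in silica lungs, against 11.02, 11.19 and 11.36 in air lungs. All 8 silica lungs lay below all 12 air lungs, by a narrow gap between the highest silica and the lowest air lung; before normalization the groups overlapped (1671 to 2268 units in silica lungs, 1537 to 3500 in air lungs). Group means were 10.90 ± 0.08 in silica lungs and 11.19 ± 0.10 in air lungs (SD, n = 8 and 12), a log2 difference of -0.29 ± 0.04 (SE). Il33 was 1.22-fold higher in air lungs, with an adjusted p of 2.20e-05 in limma. That difference was not computed with another background correction or normalization, and the authors' deposited log2 values do not include Il33. Of all rows in that fit, 12.8% passed with a lower level in silica and 0.744% had every silica array below every air array.

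Markers of cells that could hold Il33 moved in both directions. Of 6 endothelial markers tested, 4 fell and none rose, where 24.5% of all genes passed in either direction. The smallest p values were those of Tie1 and Emcn, whose log2 differences were -0.33 ± 0.05 and -0.34 ± 0.06 (SE). The summed log2 level of the endothelial markers ran from 14.21 to 14.45 in silica lungs and from 14.36 to 14.67 in air lungs. Of 8 type 2 epithelial markers, 4 rose and none fell, where 11.7% of all genes were higher in silica. The summed level of these markers ran from 16.28 to 16.41 in silica lungs and from 16.10 to 16.35 in air lungs. Against air rats 89 to 92 alone, where 6.18% of all genes passed, 2 endothelial markers fell and 2 type 2 epithelial markers rose. The part of either cell type in the Il33 result was not tested.

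Among the inhibitors, Il1r2 encodes the decoy receptor, known from neutrophils, monocytes and macrophages. Its log2 intensity ran from 8.02 through a median of 8.36 to 8.59 in silica lungs, against 6.79, 7.06 and 7.22 in air lungs. Every silica lung lay above every air lung, as was so for 1.83% of the genes tested. The means of 8.34 ± 0.23 in silica lungs and 7.03 ± 0.15 in air lungs (SD, n = 8 and 12) differed by 1.31 ± 0.08 (SE), 2.47-fold, with an adjusted p of 5.66e-11 in limma. With limma's default background estimate the difference was 0.75. Among the 10488 genes tested, Il1r2 took place 19 by the size of its rise and place 6 by its p.

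Many markers of neutrophils and of monocytes were higher in silica lungs, as Il1r2 was. Of 10 neutrophil markers tested 6 rose and none fell, where 11.7% of all genes were higher in silica. Cd177, a neutrophil surface protein, led the rises at 2.70 ± 0.21 (log2 difference, SE). The summed log2 level of the neutrophil markers ran from 12.16 to 12.61 in silica lungs and from 10.97 to 11.53 in air lungs, so the groups did not overlap. S100a9, Mpo, Ngp, Ltf and Fpr1, also neutrophil markers, were detected on no array, which does not show that these genes are silent. Of 14 monocyte and recruited macrophage markers 10 rose and none fell, with summed levels of 14.69 to 14.91 in silica lungs and 13.83 to 14.58 in air lungs. When only air rats 89 to 92 were used, where 6.18% of all genes passed, 3 neutrophil and 8 monocyte markers rose. The part of these cells in the Il1r2 rise was not tested.

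Il1rn encodes the interleukin 1 receptor antagonist. Silica lungs ran from 7.25 through a median of 7.60 to 7.81 on the log2 scale, against 6.63, 7.01 and 7.79 in air lungs. A single silica lung lay above all air lungs, and air rat 91 was higher than 7 of the 8 silica lungs. The means of 7.58 ± 0.18 in silica lungs and 7.12 ± 0.33 in air lungs differed by 0.46 ± 0.12 (SE), 1.38-fold, with an adjusted p of 0.00564 in limma. The size depended on the processing: it was 0.19 with limma's default background estimate and 0.29 in the authors' deposited log2 values, with adjusted p values of 0.00674 and 0.00738 in limma.

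Il18bp encodes the soluble inhibitor of interleukin 18. Its log2 intensity ran from 6.64 through 6.87 to 7.15 in silica lungs, against 6.40, 6.77 and 7.05 in air lungs, and the ranges lay almost wholly over each other. The means were 6.87 ± 0.19 in silica lungs and 6.78 ± 0.17 in air lungs, and the difference of 0.09 ± 0.08 (SE) did not pass (adjusted p = 0.444, limma).

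The signalling receptor chains gave no usable fold change. Il1r1 was detected at p under 0.01 on 1 of 8 silica arrays, that of rat 85, and on 0 of 12 air arrays, with raw intensities of 65.4 to 89.6 units in silica lungs and 58.8 to 83.4 units in air lungs. Its normalized mean was 5.06 ± 0.18 in silica lungs and 4.82 ± 0.10 in air lungs, and its silica mean did not reach the bound that the dimmest detected probes set for the air arrays (5.37). Il1rap and Il1rl1, the receptor chain for interleukin 33, were detected on 0 of 20 arrays and averaged 4.60 and 4.55 in silica lungs against 4.58 and 4.52 in air lungs. Their probes were not well above background, which does not show that the genes are silent.

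With no filter on dim probes Il1r1 also passed, with a log2 difference of 0.24 ± 0.06 (SE) and an adjusted p of 0.0110 in limma. It passed again in the same fit to the authors' deposited log2 values, with a log2 difference of 0.07 ± 0.02 (SE) and an adjusted p of 0.0134. Both rest on intensities at the edge of detection.

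Whether 4 of the 5 genes that rose passed depended on the air rats used as controls. A run holds only 4 air rats, so these comparisons also rest on fewer arrays. Against air rats 89 to 92 alone, where 6.18% of all genes passed, 1 of the 6 family genes passed, namely Il1r2. Against rats 105 to 108, where 17.4% of all genes passed, and against rats 137 to 140, where 20.7% did, all 5 passed. The Il1r2 difference was 1.29, 1.28 and 1.35 on the log2 scale against the 3 runs in that order, with adjusted p values of 1.70e-05, 2.59e-06 and 5.15e-07 in limma.

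Il1b and Il1a kept differences of similar size against each run and lost the call against the first. The Il1b difference was 0.39, 0.44 and 0.50 against rats 89 to 92, 105 to 108 and 137 to 140, with adjusted p values of 0.0708, 0.0119 and 0.00378 in limma. The Il1a difference was 0.39, 0.40 and 0.54 against the same runs, with adjusted p values of 0.0533, 0.0174 and 0.00159. Both cytokines were thus higher on average in silica lungs than in each run of air lungs.

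The Il1rn and Il18 differences ranged more widely over the runs, which was not tested between genes. The Il1rn difference was 0.20 against rats 89 to 92 (adjusted p = 0.408, limma), 0.50 against rats 105 to 108 and 0.69 against rats 137 to 140 (adjusted p = 0.0113 and 3.73e-04). The Il18 difference was 0.22 against rats 89 to 92 (adjusted p = 0.284, limma), 0.47 against rats 105 to 108 and 0.52 against rats 137 to 140 (adjusted p = 0.00574 and 1.22e-04). The Il1rn mean in the air lungs was 7.38 in the first run, 7.08 in the second and 6.90 in the third, and an F test across the 3 runs gave an unadjusted p of 0.0421 and an adjusted p of 0.405 in limma. For Il18 the same F test gave an unadjusted p of 0.184 and an adjusted p of 0.639 in limma. Over all rows 0.16% passed that F test.

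With the runs as 3 fixed blocks, which rests the silica difference on rats 89 to 92, 7.32% of all genes and 3 of the 6 family genes passed in limma. These were Il1r2, Il1a (adjusted p = 0.0404) and Il1b (adjusted p = 0.0423). The Il33 difference was -0.30, -0.24 and -0.34 against the runs in the order above, and it passed against each (adjusted p = 0.00280, 0.00870 and 4.02e-04, limma, averaged rows kept). Il18bp passed against no run, with differences of -0.02, 0.10 and 0.19.

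**Figure D2:**
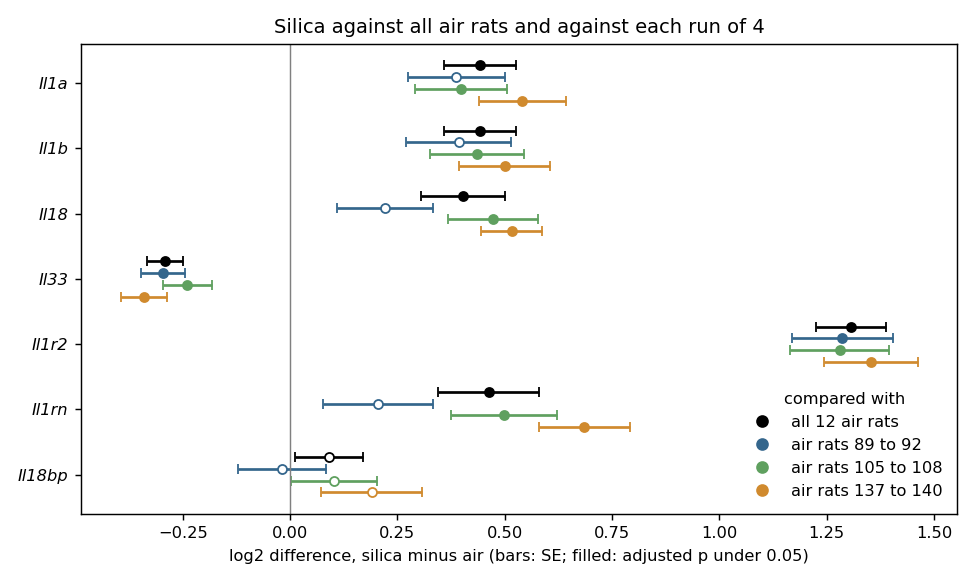
Log2 difference of silica minus air lungs (horizontal axis, points with SE bars) for 7 family genes, against all 12 air rats (black) and against each run of 4 air rats (colours), with filled points for an adjusted p under 0.05. Il1r2 stays between 1.28 and 1.35 and Il33 between -0.34 and -0.24, whereas Il1rn spans 0.20 to 0.69.

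Whether an agonist and its inhibitor changed by the same amount was asked within each array, as the agonist's log2 intensity minus the inhibitor's, for 5 pairs with both genes detected. Each difference between groups was tested over rats with a two-sided exact permutation test of all 125970 regroupings, and p values were adjusted over the 5 pairs. Il33 could not be set against Il1rl1, which lay near background. The sign of such a value says nothing of which protein is more abundant, because each probe has its own brightness.

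Against the decoy receptor, both interleukin 1 agonists were relatively lower in silica lungs. Il1r2 enters both pairs and by itself already separated the groups, so the pairs are not independent results. Il1b minus Il1r2 averaged 1.65 ± 0.12 in silica lungs and 2.51 ± 0.23 in air lungs (SD), a difference of -0.86 ± 0.08 (SE, 95% permutation interval from -1.04 to -0.68). All 8 silica lungs lay below all 12 air lungs, with a highest silica value of 1.85 and a lowest air value of 2.02. The exact permutation p of 7.938e-06 is the smallest the design can give, and its adjusted value was 1.985e-05. With this background correction the ratio of Il1b to Il1r2 intensity was 1.82-fold higher in air lungs. The size depended on the processing: the log2 difference was -0.66 with no background correction and -0.51 in the authors' deposited log2 values.

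Il1a minus Il1r2 averaged -0.05 ± 0.20 in silica lungs and 0.81 ± 0.33 in air lungs (SD), again a difference of -0.86, with an SE of 0.12 and a 95% interval from -1.13 to -0.59. The groups did not overlap, since the highest silica value was 0.26 and the lowest air value 0.42. Its exact permutation p and adjusted p were the same as for Il1b. The Il1a minus Il1r2 difference was -0.70 with no background correction and -0.58 in the authors' deposited log2 values. In the main processing, the differences of both pairs against each run of 4 air rats lay between -0.90 and -0.81. The adjusted exact permutation p was 0.00505 in each case. With 4 air rats there are far fewer regroupings, and each unadjusted p was the smallest they can give. The equal values therefore do not show equal strength.

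Against the antagonist Il1rn, neither agonist changed its balance by more than the spread between rats. Il1a minus Il1rn averaged 0.71 ± 0.20 in silica lungs and 0.73 ± 0.26 in air lungs, a difference of -0.02 ± 0.10 (SE, exact permutation p = 0.851, adjusted 0.882). Its 95% interval from -0.25 to 0.20 leaves room for a shift of that size in either direction. Il1b minus Il1rn averaged 2.41 ± 0.25 in silica lungs and 2.43 ± 0.32 in air lungs, a difference of -0.02 ± 0.13 with an interval from -0.31 to 0.26 (exact permutation p and adjusted p = 0.882).

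These values for Il1rn changed with the background correction. With limma's default control estimate, Il1a minus Il1rn was 0.13 higher in silica lungs (adjusted exact permutation p = 0.0296) and Il1b minus Il1rn 0.31 higher (adjusted exact permutation p = 0.0105). Under the same setting the Il1b minus Il1r2 difference shrank to -0.26 and that of Il1a minus Il1r2 to -0.43, both still past the threshold with adjusted exact permutation p values of 0.0105 and 7.938e-05. That setting takes the background spread from rows that average several probes too, and it estimated a control SD of 89.7 to 262 units per array, in place of 7.48 to 14.3 units from single-probe rows.

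Il18 minus Il18bp moved the other way. It averaged 3.55 ± 0.16 in silica lungs and 3.24 ± 0.27 in air lungs (SD), a difference of 0.31 ± 0.10 (SE, 95% interval 0.09 to 0.54) with an exact permutation p of 0.00815, adjusted 0.0136. The groups overlapped, with 3 of the 8 silica lungs above every air lung. Against air rats 89 to 92 alone the difference was 0.24 with an adjusted exact permutation p of 0.118.

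**Figure D3:**
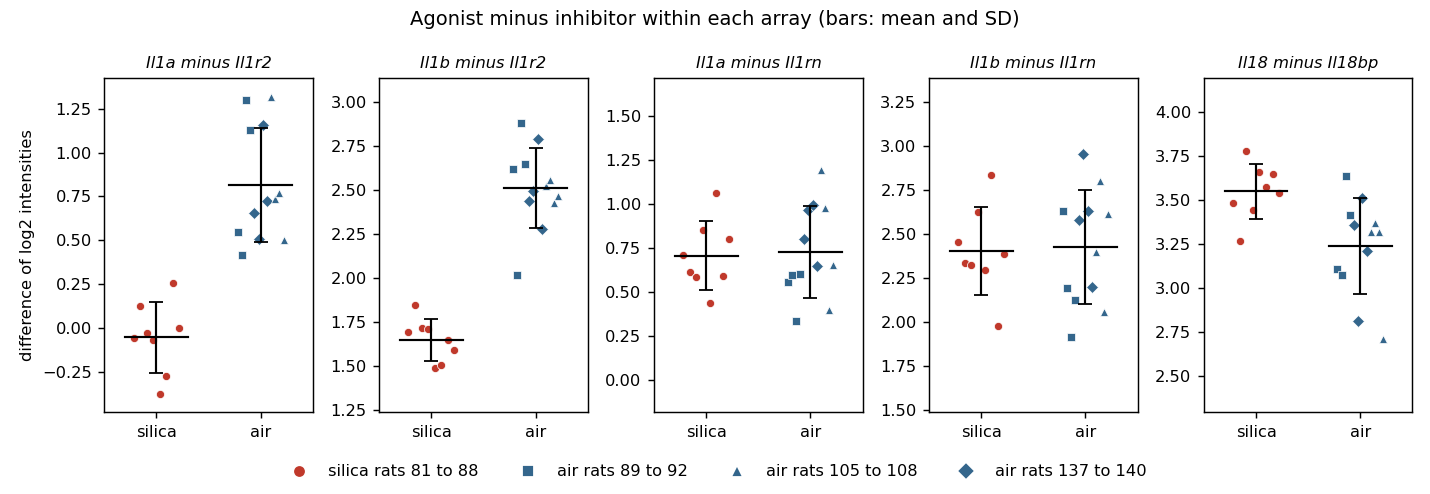
Agonist minus inhibitor log2 intensity within each array for 5 pairs, silica rats left (red, n = 8) and air rats right (blue, n = 12), with bars for the mean and SD and vertical axes of equal span. The groups separate for the pairs with Il1r2 and overlap for those with Il1rn and for Il18 with Il18bp.

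Rats were also compared within each group, over 6 relations, since a pooled correlation would only restate the group difference. In the 8 silica lungs Il1b followed Il1r2 with a Pearson r of 0.858 (permutation p = 0.0102, exact, adjusted 0.0610) and a Spearman rho of 0.762 (exact permutation p = 0.0368, adjusted 0.110). Without the 2 rats farthest from the median of Il1r2, r was 0.874. In the 12 air lungs r was 0.152 (permutation p = 0.631, adjusted 0.631) and rho 0.133 (permutation p = 0.683, adjusted 0.683); without the 2 rats farthest out it was 0.108. The difference between the groups' correlations was not tested.

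Il1a followed Il1b in silica lungs with r = 0.756 (exact permutation p = 0.0221, adjusted 0.0662) and rho = 0.833 (exact permutation p = 0.0154, adjusted 0.0923), and r = 0.697 without the 2 rats farthest out. In air lungs r was 0.251 (permutation p = 0.424, adjusted 0.631) and rho 0.406 (permutation p = 0.192, adjusted 0.383), and r = 0.423 without 2 rats. For Il1rn with Il1b, r was 0.231 in silica lungs (exact permutation p = 0.588, adjusted 0.631) and 0.323 in air lungs (permutation p = 0.306, adjusted 0.612). The matching rho values were 0.333 (exact permutation p = 0.428, adjusted 0.514) and 0.329 (permutation p = 0.296, adjusted 0.443), and r without 2 rats was 0.481 and 0.163. None of the 6 relations passed after adjustment.

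**Figure D4:**
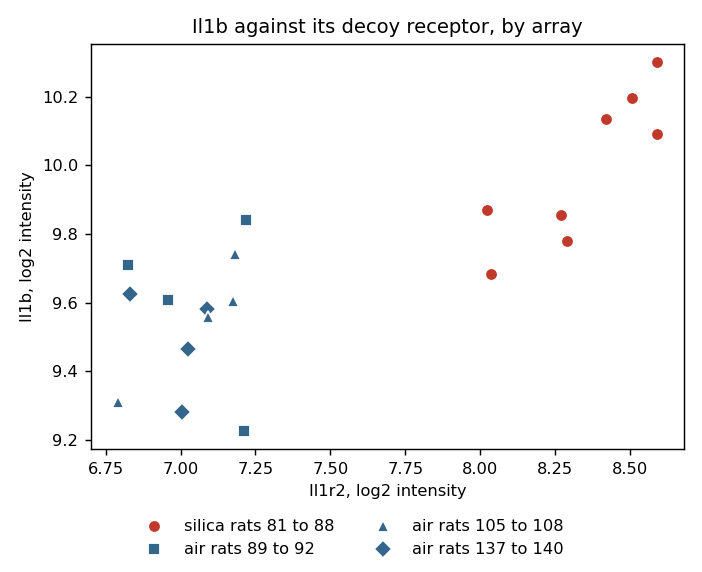
Il1b against Il1r2 log2 intensity, 1 point per rat, for silica rats (red circles, n = 8) and air rats (blue, n = 12, the marker giving the run of identifiers). Within the silica rats r was 0.858 and within the air rats 0.152.

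The genes whose rat-to-rat deviations from their own group mean were most like those of each family gene are given as a description over the 20 arrays, which share depth and tissue composition. Il18 had the closest companions: Gusb, a lysosomal enzyme, with r = 0.953, Dmrtc2 with 0.941 and Abcg1, a lipid transporter abundant in alveolar macrophages, with 0.926. Il1rn lay nearest to Cybb, a subunit of the phagocyte NADPH oxidase, at 0.885, then to Slc30a7 at 0.879 and Tpd52l2 at 0.873. Il1a lay nearest to Cxcl1, a neutrophil chemokine, at 0.780, a row named GS3 at 0.779 and the kinase Btk at 0.753.

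Il1b lay nearest to Plek, a platelet and leukocyte protein, at 0.801, Arhgdib at 0.782 and Pla2g7 at 0.734. Il1r2 shared Pla2g7 with Il1b, at 0.720, after Slc6a8 at 0.759 and Ralgapb at 0.755. Il33 lay nearest to Hltf at 0.855, Cenpc at 0.796 and Etfdh at 0.782. Of these 3 companions of Il33, none differed between silica and air lungs by more than 0.04 on the log2 scale.

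Other genes of the pathway are described by their place in it, from the making of the cytokines to the genes they induce. Of 18 processing and release genes listed, 14 were tested, of which 4 rose, 0 fell and 10 did not pass. Over all genes tested 24.5% passed in either direction and 11.7% were higher in silica. The median log2 difference of the 14 was 0.02, against -0.02 over all genes tested. Casp4, the inflammatory caspase of the noncanonical inflammasome, rose by 0.35 ± 0.06 (adjusted p = 8.68e-05, limma). Ctss, a lysosomal protease, rose by 0.37 ± 0.07, and Nek7, a kinase that Nlrp3 needs to assemble, by 0.61 ± 0.14 (SE). Against air rats 89 to 92 alone, where 6.18% of all genes passed, 2 of the 14 rose, Casp4 and Ctss. The Nek7 difference there was 0.29 (adjusted p = 0.190, limma).

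Casp1 and Nlrp3, singled out after their values were seen because they cut and sense upstream of Il1b, did not pass. Casp1 averaged 11.22 ± 0.09 in silica lungs and 11.31 ± 0.10 in air lungs (log2 difference -0.09 ± 0.05, adjusted p = 0.139, limma). Nlrp3 averaged 6.00 ± 0.16 in silica lungs and 5.81 ± 0.22 in air lungs (log2 difference 0.19 ± 0.09, adjusted p = 0.118, limma). RNA levels do not show whether caspase 1 was active.

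Of 25 receptor signalling genes listed, 20 were tested, of which 1 rose, 1 fell and 18 did not pass, with a median log2 difference of 0.01. Over all genes tested 24.5% passed in either direction. Irak2, a kinase of the Myd88 complex, rose by 0.25 ± 0.08 (adjusted p = 0.0284, limma), and Map2k6, a kinase that activates p38, fell by 0.31 with an SE of 0.09 (adjusted p = 0.0149). Neither passed against air rats 89 to 92 alone, where the Irak2 difference was 0.09 (adjusted p = 0.713, limma) and the Map2k6 difference -0.06 (adjusted p = 0.824); Tab2 was the 1 gene of the list that rose there. Among 11 other ligands and receptors of the family 3 were tested and 7 were detected on no array, Il18r1 and Il18rap, the receptor chains for interleukin 18, among them. Sigirr, an inhibitory receptor of the family, averaged 9.38 ± 0.07 in silica lungs and 9.54 ± 0.09 in air lungs and fell by 0.16 (SE 0.04, adjusted p = 0.00656, limma). The Sigirr difference against air rats 89 to 92 alone was -0.14 (adjusted p = 0.172, limma).

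Of 15 genes listed as NF-kB feedback and brakes, 10 were tested, with a median log2 difference of 0.10. Of these 4 rose, 0 fell and 6 did not pass, where 11.7% of all genes were higher in silica. Zc3h12a, which degrades cytokine messenger RNA, rose by 0.71 ± 0.11 (adjusted p = 2.70e-05, limma). Nfkbia, the inhibitor that NF-kB itself induces, rose by 0.22 ± 0.06, and Nfkbib by 0.15 ± 0.05 (SE). In the comparison with air rats 89 to 92 alone, where 6.18% of all genes passed, Zc3h12a was the 1 gene of the list that rose. Nfkbia and Nfkbib did not pass there (adjusted p = 0.0742 and 0.219, limma).

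Of 30 listed genes that interleukin 1 is known to induce, 18 were tested. Of these 13 rose, 0 fell and 5 did not pass, where 11.7% of all genes were higher in silica. The median log2 difference of the 18 was 1.06. Against air rats 89 to 92 alone, where 6.18% of all genes passed, it was 0.85 and 11 rose. Cxcl6 (CXCL5 in the table), a neutrophil chemokine, averaged 7.61 ± 0.47 in silica lungs and 4.81 ± 0.28 in air lungs, where 1 of 12 arrays detected it; its adjusted p was 1.14e-11 in limma. Set against the dimmest detected probes of the air arrays, Cxcl6 was at least 4.66-fold higher in silica lungs. Ccl7, a monocyte chemokine, rose by 1.63 ± 0.10 and Sod2, the mitochondrial superoxide dismutase, by 1.09 ± 0.08 (SE).

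Many of the genes in that list answer to other signals such as tumour necrosis factor, and the list was chosen with earlier results of these data known. Their rise is therefore a description and not independent support for interleukin 1 signalling. The 5 that did not pass were Ptgs2, Mmp9, Vcam1, Icam1 and Timp1, with log2 differences between -0.03 and 0.12.

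**Figure D5:**
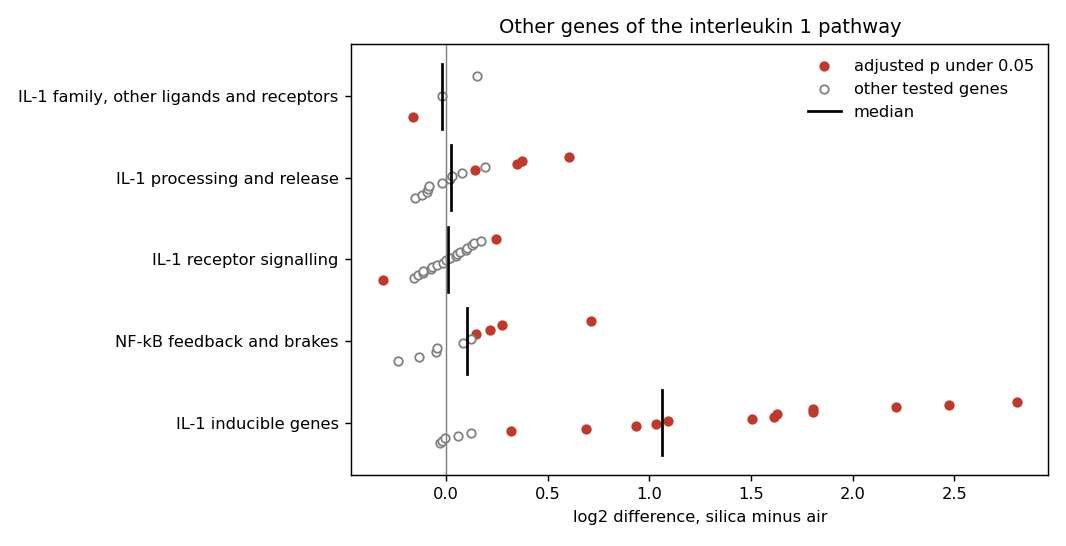
Log2 difference of silica minus air lungs for each tested gene of 5 lists around the interleukin 1 pathway (rows), red where the adjusted p was under 0.05 and open otherwise, with a black line at each list's median. The inducible genes reach 2.48 (Lcn2), beyond which lies Cxcl6 at a fitted 2.81 that rests on a probe detected on 1 of 12 air arrays; the signalling genes lie between -0.31 and 0.25.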

How the data were processed

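Lung RNA of 20 rats (375 ng each, per the labels' protocols) was read on Illumina bead arrays. The intensities, with bead standard errors and bead numbers, were deposited by the authors from BeadStudio, per the submitters' processing notes, with detection p-values deposited by the authors beside them. The authors' deposited log2 values (12763 genes; lumi and limma are named in the notes) served as an alternative.

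For each array the background mean and SD were estimated from the detection p-values of 21109 single-probe rows, leaving out 683 rows that average several probes. Normexp correction (offset 16), quantile normalization and a filter (detection p under 0.01 on at least 8 arrays) left 10488 genes, tested with lmFit and eBayes with trend (limma 3.58.1, R 4.3.3) and Benjamini-Hochberg adjustment; the fit was tested on simulated data. A gene called detected on no array had no detection p under 0.01. A row that averages several probes can miss that threshold while bright, as Il33 did. Permutation tests and figures used Python 3.11.15 (numpy 2.4.6). The number of arrays limits the precision, and the labels call each sample a separate rat. Current symbols came from RefSeq (GRCr8): 5471 rows kept the table's name. Replicate numbers in the titles did not pair rats.

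The family's members and all gene lists were chosen with earlier results of these data known. All members are named, and each pathway list gives up to 3 passing genes of smallest p. For 6 members the 3 genes of highest correlation of within-group deviations are named, with members and placeholder names left out.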

Additional observations from a re-analysis of the deposited data

How the results depend on the processing

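The count of 5 family genes that changed came out as 5 without any single array, and between 5 and 7 under 12 of 14 other alternatives; it was 1 against air rats 89 to 92 alone and 3 with identifier run as a fixed block. Against air rats 89 to 92 alone it was 2 with no filter, with genes detected on all 20 arrays only, or with averaged rows kept. The count of all genes (2566) ran from 2182 to 2763 without single arrays and was 1388 with median scaling, 648 against air rats 89 to 92 alone, 768 with the fixed block and 1539 with the replicate number as a block. Replicate numbers did not pair rats: deviations of same-numbered rats correlated between -0.23 and 0.16, 0 of 8 silica arrays correlated best with their own number, and with the replicate block 5 family genes passed and the Il1b minus Il1r2 difference was -0.87. Il1a minus Il1rn and Il1b minus Il1rn turned to 0.1338 and 0.3075 with limma's default control estimate; the cause was not tested. Il18 minus Il18bp was 0.2416 against air rats 89 to 92 alone. Filters do not alter a pair difference, and pairs were not run with the identifier run as a fixed or a random block. Il1r2 stayed between 0.75 and 1.35. For Il33 the background correction and the normalization were not varied. Precision is limited for Il1r1, Il1rap and Il1rl1, whose signal lay near background.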

Other observations

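Markers of cells known to carry the interleukin 33 receptor were few on these arrays. Of 10 mast cell markers listed, 2 were tested: Hdc, the enzyme that makes histamine, rose by 0.24 ± 0.06 (SE, adjusted p = 0.00328, limma) and Kit differed by 0.02 ± 0.13. Mcpt1, Tpsab1 and Tpsb2 were detected on no array. Of 8 markers of type 2 innate lymphoid cells, 3 were tested, of which 2 fell, where 24.5% of all genes passed in either direction. Gata3, a transcription factor shared with T cells, averaged 6.67 ± 0.16 in silica lungs and 7.24 ± 0.29 in air lungs, a log2 difference of -0.57 ± 0.10 (adjusted p = 3.15e-04, limma), and Rora fell by 0.28 (SE 0.07). Against air rats 89 to 92 alone neither passed, with differences of -0.25 and -0.15 (adjusted p = 0.203 and 0.431, limma). Il7r, Il5, Il13, Klrg1 and Il2ra were detected on no array. Of 8 T cell markers tested 6 fell and none rose, again beside 24.5% of all genes. The summed log2 levels of the T cell markers were 10.96 to 11.26 in silica lungs and 11.22 to 11.70 in air lungs. With air rats 89 to 92 as the only controls, where 6.18% of all genes passed, 1 T cell marker fell.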
